A study of Homo sapiens with 9 samples.

Results

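ZC3HAV1, KHNYN, N4BP1, ISG20, PNPT1 and XRN1 encode RNA decay factors linked to the interferon response, and are 6 of the 59609 genes in the deposited count table. They were picked by gene symbol, for what they are known to do to RNA: bind it, cut it or trim it. The choice was made with earlier results of these data known, so the counts below are not those of an unselected set. All 6 passed the filter on low counts, which 16964 genes passed in all. The cells were SUIT2, an established human pancreatic cancer line. The first group had received IFNβ, a type I interferon, at 100 U/mL for 24 h, the second had received the same dose for 6 h, and the third was labelled as control treated. Each group held 3 bulk RNA-seq libraries. What the control medium contained, and for how long, is not given in the labels, whose treatment text is the same for every sample. Nothing in the labels says whether the libraries of a group came from separate cultures, so the p-values measure the spread between these libraries, which may be technical.

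Type I interferon binds a cell surface receptor whose kinases activate a transcription factor complex containing IRF9. That complex binds interferon-stimulated response elements, in which GAAA repeats are spaced by a few bases. Among its targets are nucleases and their cofactors, which limit viral RNA and also act on cellular RNA. ZC3HAV1 encodes the zinc finger antiviral protein (ZAP), which binds CpG-rich RNA and has no nuclease activity of its own. KHNYN is an endonuclease that works with ZAP, and N4BP1 is a related endonuclease with the same kind of NYN nuclease domain. ISG20 is a 3′-to-5′ exonuclease. XRN1 is the main cytoplasmic 5′-to-3′ exonuclease and degrades decapped mRNA. PNPT1 encodes polynucleotide phosphorylase, a 3′-to-5′ exoribonuclease that resides mainly in mitochondria.

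RefSeq promoter windows on GRCh38.p14 were available for 6 of 6 factors, with 2 windows for KHNYN and 1 for each of the others. GENCODE 29 lists 11 transcript starts for ISG20 and 14 for XRN1, and starts other than those of the windows were not searched. The 250 bases before the start of each window were searched on both strands for the core of the interferon-stimulated response element, GAAA and GAAA with 2 bases of any kind between them. Of the factors, only ISG20 held it, starting 69 bases before the start, and 3.02% of all 35116 windows held it. Of 6 relatives and partners of the factors searched in the same way, only PARP12, a relative of ZC3HAV1, held it. There it lay on the opposite strand, 10 bases before the start. The stretches are shown because ISG20 and PARP12 had the largest increases among the factors and their relatives. Capitals mark the motif. Exons of 4 GENCODE 29 transcripts of ISG20 and 1 of PARP12, with starts farther upstream, cover the letters shown.
ISG20, chr15:88638937-88638966, plus strand: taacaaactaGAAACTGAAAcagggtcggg
PARP12, chr7:140062952-140062981, minus strand: tttcgccggcccggggccgcTTTCGGTTTC

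A pair of further windows is shown for the contrast they give within the panel. PNPT1 held a variant with 1 base between the repeats, GAAANGAAA, 65 bases before its start, a spacing searched only after its window had been read and present in 2.69% of all windows. It also held TTCNNNGAA, the palindromic core of the gamma-activated sequence, a further interferon-response element, 118 bases before the start. That core was in 6.57% of all windows. Of the relatives and partners searched, only SUPV3L1 held it, 114 bases before its start. SUPV3L1 is a partner of PNPT1 whose RNA was not called changed against control at either time. ZC3HAV1 held the gamma-activated core 104 bases before its start and held neither form of the response element. Capitals mark both motifs. An exon of 1 GENCODE 29 transcript, with a start farther upstream, covers the last 30 of the PNPT1 bases shown. Those bases include the marked GAAACGAAA.
PNPT1, chr2:55693881-55694094, minus strand: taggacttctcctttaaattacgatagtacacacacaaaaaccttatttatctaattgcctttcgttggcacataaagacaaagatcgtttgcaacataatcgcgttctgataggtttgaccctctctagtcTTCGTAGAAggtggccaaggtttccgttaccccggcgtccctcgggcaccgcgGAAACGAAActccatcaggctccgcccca
ZC3HAV1, chr7:139109721-139109970, minus strand: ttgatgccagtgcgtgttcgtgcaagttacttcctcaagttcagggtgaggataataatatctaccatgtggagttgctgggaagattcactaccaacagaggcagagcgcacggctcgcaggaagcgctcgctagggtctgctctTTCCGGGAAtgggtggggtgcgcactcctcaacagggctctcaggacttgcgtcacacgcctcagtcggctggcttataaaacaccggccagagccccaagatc

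In KHNYN the gamma-activated core was found 222 bases before the start in 1 of its windows. The windows of N4BP1 and XRN1 held none of these letters. The longer element, in which CT follows the second GAAA of the core, was present in 0.225% of all windows and in 0 of the 6 factors. These matches are letters in a window and not measured binding sites.

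Library totals ran from 25270387 to 40384407 counts at 24 h, from 16799278 to 37420457 at 6 h and from 15101734 to 19632741 in control. Levels are given as CPM, counts scaled to a common library size with TMM (trimmed mean of M-values) factors. Adjusted p-values are from the quasi-likelihood test of edgeR, by the Benjamini-Hochberg method over all 16964 genes, with 0.05 as the threshold. The interferon response was present: the antiviral GTPase MX1 averaged 954.5 CPM at 24 h and 2020.0 CPM at 6 h, against 12.55 CPM in control, and the RNA-binding protein IFIT1 averaged 478.4 CPM at 24 h and 1575 CPM at 6 h, against 7.21 CPM in control (n = 3 each). The labelled cell type was checked with 9 ductal and epithelial markers, all of which were detected and which summed to 5470 to 5590 CPM at 24 h, 5530 to 5840 CPM at 6 h and 4920 to 5000 CPM in control. Of 9 leukocyte markers, PTPRC, CD3E, MS4A1 and NKG7 were at 0 in every library, while the list summed to 404 to 426 CPM at 24 h, 372 to 389 CPM at 6 h and 258 to 261 CPM in control, nearly all of it LYZ and CD68. Of 9 stromal and acinar markers DCN and CPA1 were at 0, and the list summed to 2.35 to 2.59 CPM at 24 h, 2.53 to 2.66 CPM at 6 h and 1.63 to 2.67 CPM in control. The part that these levels play in the results below was not tested.

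After 6 h of IFNβ, 5 of the 6 decay factors were higher than in control, and KHNYN was the exception. The increases spanned from 2.86-fold for ZC3HAV1 to 45.3-fold for ISG20. After 24 h the same 5 factors were still above control, by between 1.23-fold for XRN1 and 11.3-fold for ISG20. Between 6 h and 24 h each of the 5 fell, so that the 24 h level lay between the control level and the 6 h level in each. Because the samples are bulk RNA, fewer responding cells and less RNA per cell cannot be told apart.

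Against these counts stands the background of all tested genes. At 6 h 17.5% of them were called higher, at 24 h 24.7% were called higher, and 30.6% were called lower at 24 h than at 6 h. At 6 h the same 5 factors were at least 2-fold higher, as were 3.75% of all tested genes. At 24 h ISG20 alone of the factors passed both limits, against 4.82% of all tested genes. The libraries of the 6 h group lay above all control libraries for 6 of 6 factors and for 21.3% of all genes, and those of the 24 h group for 5 factors and 29.9% of all genes. The 6 h count includes KHNYN, whose log2 fold change was -0.03 when scaled by library size alone, without TMM factors. For 5 factors every 24 h library lay below every 6 h library, as was so for 32.4% of all genes. The median log2 fold change of the 6 factors was 2.21 at 6 h, beside -0.005 over all genes, and 0.69 at 24 h, beside 0.005 over all genes. Between 24 h and 6 h it was -1.30, beside -0.019 over all genes. No factor was called lower than control at 24 h or 6 h, as 25.3% and 15.4% of all genes were, and none was called higher at 24 h than at 6 h, as 26.6% were. Those 3 counts were also 0 at an unadjusted p under 0.05, by DESeq2 and by limma-voom.

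**Figure D1:**
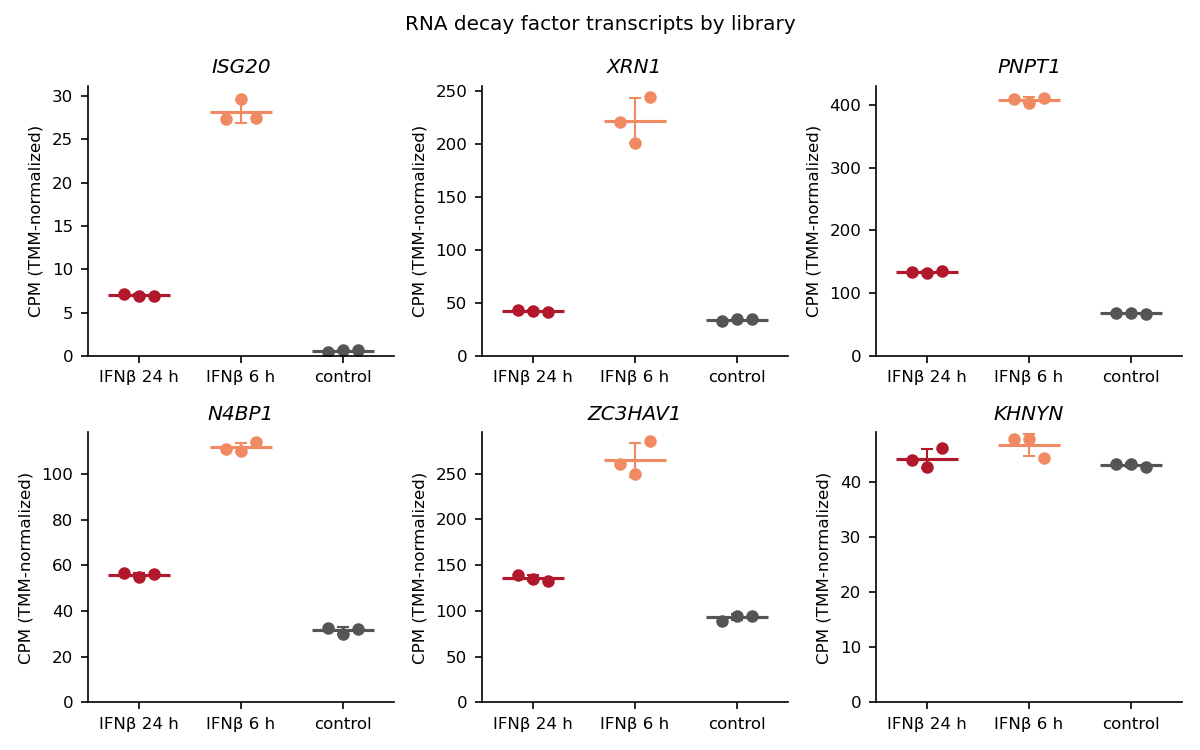
Level of each decay factor in CPM (linear axis from 0) in the 3 libraries of each group, with IFNβ 24 h at the left, IFNβ 6 h in the middle and control at the right; horizontal lines are means and bars are SD. In 5 panels the 6 h libraries stand above the 24 h libraries and these above control, while the KHNYN libraries lie between 42.6 and 47.8 CPM in all groups.

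The first role considered is that of the RNA sensor. ZC3HAV1 (hg38, chromosome 7, 139043515 to 139109721, minus strand) had 139, 135 and 133 CPM in the 24 h libraries, 260, 249 and 285 CPM in the 6 h libraries, and 89.3, 94.8 and 94.6 CPM in control. The groups did not overlap, and the spread was widest at 6 h. Its mean was 135.6 ± 3.40 CPM at 24 h, 264.9 ± 18.7 CPM at 6 h and 92.91 ± 3.11 CPM in control (SD, n = 3 each).

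The log2 fold change of ZC3HAV1 was 1.51 at 6 h (SE 0.0475, adjusted p = 5.18e-13) and 0.55 at 24 h (SE 0.0476, adjusted p = 1.44e-07). From 6 h to 24 h it fell by 0.97 on the log2 scale (SE 0.0443, adjusted p = 5.43e-11). It was the smallest 6 h increase among the 5 factors that rose, and 2.47% of tested genes had a larger one. ZAP is made in a long and a short form from the same gene, and gene-level counts cannot separate the 4 annotated transcripts.

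The nuclease partner of ZAP behaved differently. KHNYN (chromosome 14, 24429286 to 24441844, plus strand) had 43.9, 42.6 and 46.1 CPM at 24 h, 47.8, 47.8 and 44.4 CPM at 6 h, and 43.2, 43.3 and 42.7 CPM in control. Every 6 h library lay above every control library, whereas the 24 h libraries overlapped both groups. The log2 fold change was 0.11 at 6 h (95% interval 0.01 to 0.209, adjusted p = 0.0863), which missed the threshold of 0.05.

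At 24 h the KHNYN difference from control was 0.04 on the log2 scale (95% interval -0.056 to 0.135, adjusted p = 0.491), and from 6 h it was -0.07 (95% interval -0.162 to 0.021, adjusted p = 0.177). Without the third 6 h library, whose 44.4 CPM was the lowest of its group, the 6 h value was 0.151 and the 24 h against 6 h value -0.112, and both passed (adjusted p = 0.0202 and 0.0365). Scaling by library size alone turned the 6 h value to -0.03 (adjusted p = 0.641), so no direction is given for KHNYN. On the deposited normalized values the 24 h difference was 0.466 (adjusted p = 0.0132), where the median of all genes was 0.371.

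KHNYN also shares exon sequence with genes on the opposite strand in the GENCODE 29 annotation. The shared stretch covers 2037 bases, or 25.41% of its exon bases, with SDR39U1 and 315 bases, or 3.93%, with CBLN3. The sources used here do not give the strand setting of the counting, so reads in those bases cannot be assigned with certainty. SDR39U1 averaged 15.32 CPM at 24 h, 15.7 CPM at 6 h and 14.28 CPM in control and did not pass in either comparison with control (adjusted p = 0.31 at 24 h and 0.244 at 6 h). None of the other 5 factors shares exon bases with an overlapping annotated gene.

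N4BP1, the relative of KHNYN, is an endonuclease known to restrict HIV-1. It lies on chromosome 16 (48538726 to 48620149, minus strand) and had 56.6, 54.8 and 56.2 CPM at 24 h, 111, 110 and 114 CPM at 6 h, and 32.7, 29.8 and 32.1 CPM in control. The 3 groups were well separated and tight. The log2 fold change was 1.83 at 6 h (SE 0.0416, 3.54-fold, adjusted p = 7.26e-15) and 0.83 at 24 h (SE 0.0426, 1.78-fold, adjusted p = 2.97e-10).

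From 6 h to 24 h N4BP1 fell to 0.501 of its 6 h level (log2 fold change -0.996, SE 0.0355, adjusted p = 2.74e-12). Thus the 2 NYN domain nucleases of the panel separated: N4BP1 passed in all 3 comparisons, and KHNYN in none. The count ratio of KHNYN to N4BP1 within each library was 0.776, 0.778 and 0.821 at 24 h, 0.432, 0.436 and 0.391 at 6 h, and 1.32, 1.45 and 1.33 in control. The log2 ratio differed from control by -1.704 at 6 h (SE 0.0673) and by -0.788 at 24 h (SE 0.0528), with no overlap between groups.

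**Figure D2:**
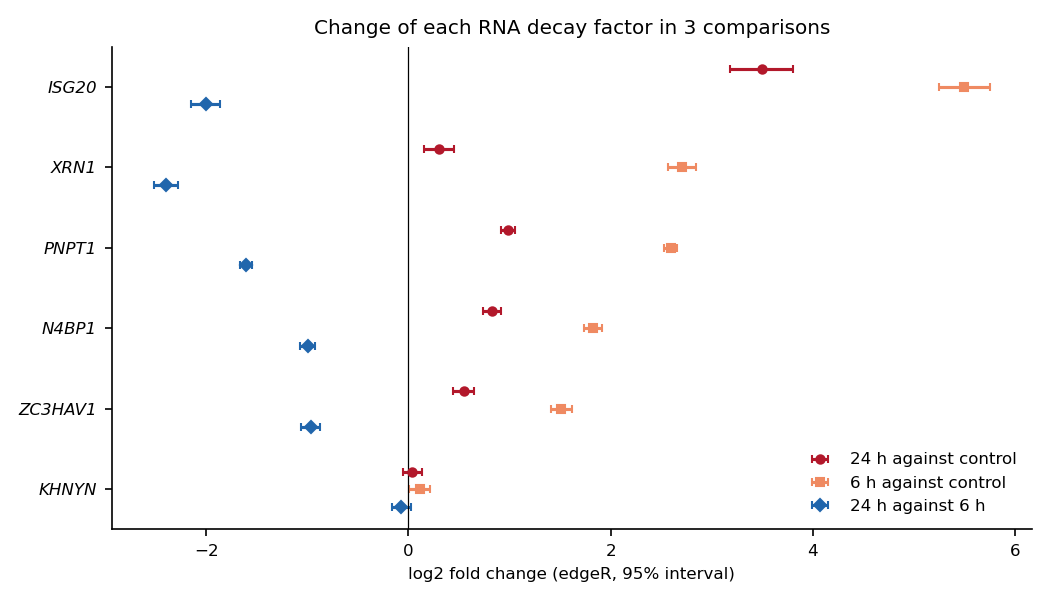
Log2 fold change of each decay factor (horizontal axis, edgeR) with its 95% interval, each factor having a point for either treatment time set against control and a point for the later time set against the earlier. ISG20 stands farthest right against control, the XRN1 point for 24 h against 6 h lies at -2.40, and the KHNYN points lie nearest to 0.

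Among the exonucleases ISG20 had the largest change of the panel. It lies on chromosome 15 (88636153 to 88656484, plus strand) and had 7.13, 6.93 and 6.92 CPM at 24 h, 27.3, 29.7 and 27.5 CPM at 6 h, and 0.48, 0.705 and 0.652 CPM in control. These correspond to 307, 187 and 255 counts at 24 h, 420, 642 and 946 counts at 6 h, and 8, 14 and 10 counts in control. The control level thus rests on few reads, and the fold changes of ISG20 have the widest errors among the 6 factors against control.

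Its log2 fold change was 5.50 at 6 h (SE 0.119, 45.3-fold, adjusted p = 3.81e-15), and 47 of the tested genes had a larger one. At 24 h it was 3.50 (SE 0.145, 11.3-fold, adjusted p = 2.31e-11), and 64 genes had a larger one. From 6 h to 24 h ISG20 fell by 2.01 on the log2 scale (SE 0.0666, adjusted p = 1.13e-12). On the deposited normalized values with a pseudocount of 1, which understates the change of a gene this low, the increases were 4.21 at 6 h and 2.59 at 24 h.

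XRN1 lies on chromosome 3 (142306607 to 142448063, minus strand) and had 43.5, 41.9 and 41.2 CPM at 24 h, 221, 201 and 244 CPM at 6 h, and 33.3, 34.4 and 34.9 CPM in control. The 6 h libraries stood far above all others, and the 24 h libraries stood just above control without overlap. Its log2 fold change was 2.704 at 6 h (SE 0.0639, 6.51-fold, adjusted p = 1.16e-14). At 24 h it was 0.30 (SE 0.0695, 1.23-fold, adjusted p = 0.00191), a size that 3848 tested genes exceeded.

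Of the 6 factors, XRN1 fell most between 6 h and 24 h, to 0.19 of its 6 h level (log2 fold change -2.40, SE 0.0573, adjusted p = 2.1e-14). PNPT1, described next, had an increase of 2.59 at 6 h, near that of XRN1, and one of 0.98 at 24 h, above that of XRN1. The difference between the 2 genes was not tested.

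PNPT1 (chromosome 2, 55634061 to 55693864, minus strand) had 134, 132 and 136 CPM at 24 h, 410, 403 and 412 CPM at 6 h, and 68, 68.8 and 66.2 CPM in control. It had the smallest standard errors of the 6 factors, with a mean of 133.9 ± 2.01 CPM at 24 h, 408.4 ± 4.55 CPM at 6 h and 67.67 ± 1.29 CPM in control (SD, n = 3 each). The log2 fold change of PNPT1 was 2.59 at 6 h (SE 0.0313, 6.03-fold, adjusted p = 2.48e-18) and 0.98 at 24 h (SE 0.0313, 1.98-fold, adjusted p = 7.62e-13). From 6 h to 24 h PNPT1 fell to 0.328 of its 6 h level (log2 fold change -1.61, SE 0.0283, adjusted p = 8.05e-16).

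The levels of different factors can be compared only per length, here as CPM per kilobase of the union of annotated exons. In control the order was PNPT1 with 13.2, ZC3HAV1 with 11.3, KHNYN with 5.37, N4BP1 with 4.02, XRN1 with 2.85 and ISG20 with 0.0832 CPM per kilobase. At 6 h it was PNPT1 with 79.5, ZC3HAV1 with 32.1, XRN1 with 18.5, N4BP1 with 14.2, KHNYN with 5.82 and ISG20 with 3.83 CPM per kilobase. At 24 h PNPT1 had 26.1, ZC3HAV1 16.5, N4BP1 7.13, KHNYN 5.51, XRN1 3.52 and ISG20 0.95 CPM per kilobase. The ranges of neighbours over 3 libraries did not overlap in any group.

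KHNYN, the third of the 6 in control, was thus the fifth at 6 h on this length, having been passed by XRN1 and N4BP1. The order depends on the length used, most of all for ISG20, since its annotated exons sum to 7363 bases while its median coding transcript has 707. With the median coding transcript as the length, a choice made after that annotation was seen, ISG20 was the fifth at 24 h, the fourth at 6 h and still the last in control. The same choice put KHNYN above N4BP1 and XRN1 last at 24 h, and put KHNYN last at 6 h, below ISG20.

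Relatives and partners outside the panel show which changes a family shares. ZC3HAV1L, a paralog of ZC3HAV1, averaged 4.40 CPM at 24 h, 4.21 CPM at 6 h and 4.87 CPM in control and did not pass at either time (adjusted p = 0.401 at 24 h and 0.303 at 6 h). PARP12, which shares the zinc finger and PARP-type architecture of ZAP and is itself an active transferase, had 56.1 CPM at 24 h, 210.3 CPM at 6 h and 15.6 CPM in control. Its increase of 3.75 on the log2 scale at 6 h (SE 0.0495, adjusted p = 6.35e-18) was larger than that of ZC3HAV1. The log2 count ratio of ZC3HAV1 to PARP12 differed from control by -2.243 at 6 h (SE 0.0783) and by -1.301 at 24 h (SE 0.0564).

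For ISG20 the relatives were ISG20L2 and AEN, nucleolar and nuclear exonucleases with the same kind of catalytic domain. ISG20L2 averaged 54.1 CPM at 24 h, 67.1 CPM at 6 h and 67.4 CPM in control. AEN averaged 52.7 CPM at 24 h, 78.7 CPM at 6 h and 61.2 CPM in control. ISG20L2 was lower at 24 h (log2 fold change -0.32, adjusted p = 1.45e-05) and did not pass at 6 h (-0.01, adjusted p = 0.898). AEN was lower at 24 h (-0.21, adjusted p = 0.00066) and higher at 6 h (0.36, adjusted p = 6.82e-06). On the deposited normalized values the 24 h differences were positive and did not pass for ISG20L2 (0.12, adjusted p = 0.535) or AEN (0.22, adjusted p = 0.244). Both lay below the median of all genes on those values, which was 0.371 at 24 h. The ISG20 over ISG20L2 log2 ratio was higher than in control by 5.477 at 6 h (SE 0.207) and by 3.784 at 24 h (SE 0.204), and the ISG20 over AEN ratio by 5.109 at 6 h (SE 0.164) and by 3.683 at 24 h (SE 0.166).

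XRN2, the nuclear counterpart of XRN1, averaged 70.2 CPM at 24 h, 68.7 CPM at 6 h and 59.9 CPM in control. The count ratio of XRN1 to XRN2 was 0.606, 0.588 and 0.608 at 24 h, 3.4, 2.85 and 3.46 at 6 h, and 0.524, 0.582 and 0.611 in control. At 6 h every library stood far above control, while at 24 h the libraries overlapped control (difference 0.073 on the log2 scale, SE 0.067, exact two-sided permutation p = 0.4). XRN2 itself passed at both times, by 0.23 at 24 h (adjusted p = 0.000683) and by 0.20 at 6 h (adjusted p = 0.00365, and 0.292 with library size alone as the scale).

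SUPV3L1, the mitochondrial helicase that works with PNPT1, averaged 29.8 CPM at 24 h, 29.4 CPM at 6 h and 30.3 CPM in control and passed at neither time (adjusted p = 0.782 at 24 h and 0.594 at 6 h). The log2 ratio of PNPT1 to SUPV3L1 was higher than in control by 2.637 at 6 h (SE 0.0635) and by 1.008 at 24 h (SE 0.0385). A ratio within a library does not depend on scaling, and it shows unequal change of the pair, not which gene moved. Of 21 ratio comparisons (7 pairs), 20 gave an exact two-sided permutation p of 0.1, the smallest that 3 against 3 libraries allow, and 0.105 after Benjamini-Hochberg adjustment.

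**Figure D3:**
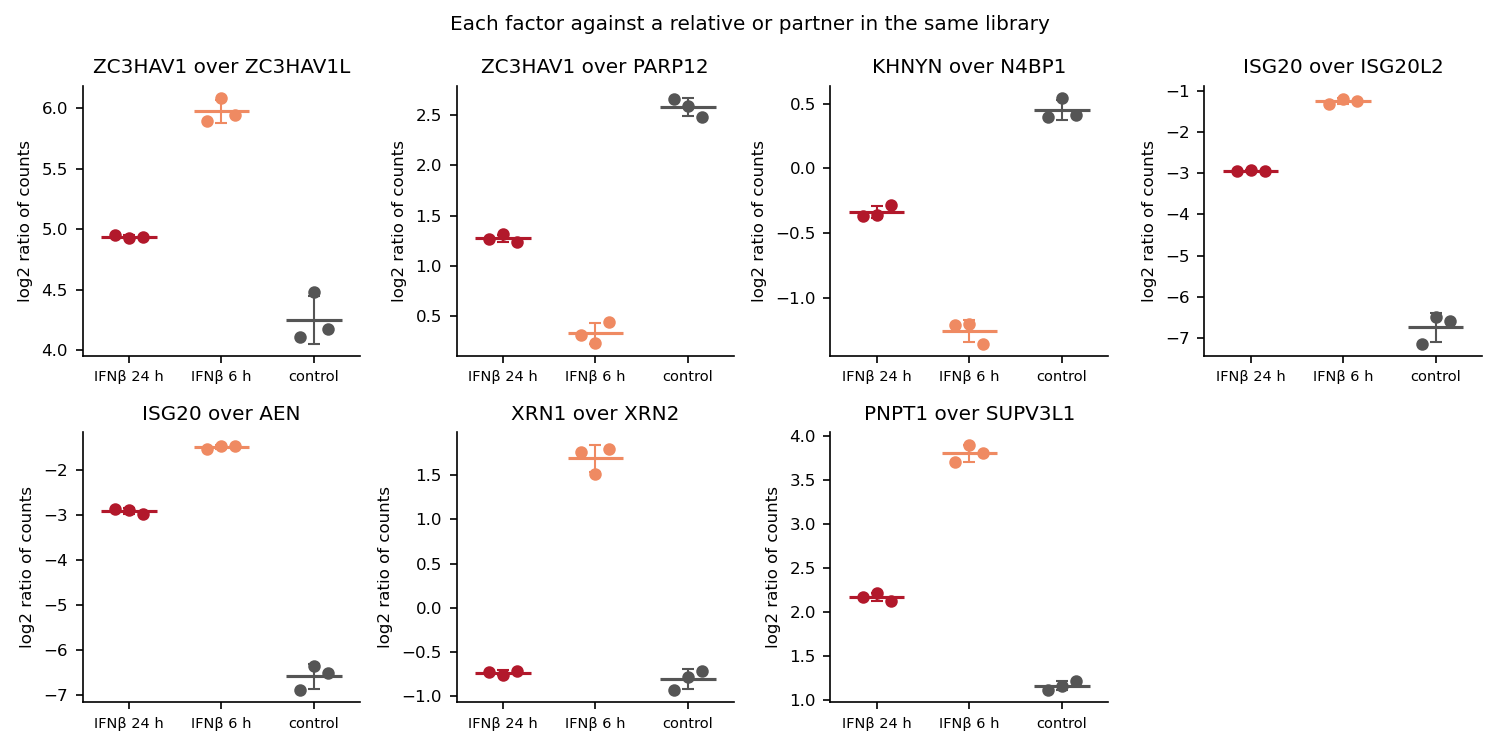
Log2 ratio of counts of each factor to a relative or partner within a library (vertical axis, its range differing between panels), with IFNβ 24 h at the left, IFNβ 6 h in the middle and control at the right; lines are means and bars SD over 3 libraries. Groups are separate in every panel except XRN1 over XRN2, where the 24 h libraries lie among the control libraries.

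The same comparison was widened to lists of the wider decay machinery, each with its count and its median log2 fold change, beside a median of -0.005 at 6 h and 0.005 at 24 h over all genes. Of 14 relatives of the factors, 6 were higher and 2 lower at 6 h (median 0.007), and 5 were higher and 5 lower at 24 h (median 0.081). NYNRIN, another NYN domain protein, averaged 22.65 CPM at 24 h, 8.97 CPM at 6 h and 10.82 CPM in control, and rose at 24 h (log2 fold change 1.06, SE 0.0643, adjusted p = 2.12e-09). ZC3H12B, a regnase family endonuclease of low level, averaged 3.15 CPM at 24 h, 0.915 CPM at 6 h and 1.87 CPM in control, with log2 fold changes of 0.77 at 24 h (adjusted p = 0.00241) and -0.998 at 6 h (adjusted p = 0.00313).

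These 2 relatives thus had their highest level at 24 h and their lowest at 6 h, an order that none of the 5 responding decay factors had. The 6 h decreases were less firm than the 24 h increases: NYNRIN at 6 h (log2 fold change -0.28, adjusted p = 0.0102) had an adjusted p of 0.0592 by DESeq2 and 0.0564 without the second control library. ZC3H12A, the regnase that cuts stem loops in cytokine mRNA, had log2 fold changes of 0.38 at 6 h (adjusted p = 0.0019) and 0.21 at 24 h (adjusted p = 0.0352). Its 24 h call was lost by DESeq2 (adjusted p = 0.126) and without the first or second control or 24 h library.

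Of 4 proteins known to act with ZAP, TRIM25, the ubiquitin ligase that ZAP needs for activity, was the only one that rose at 6 h. In that list 1 gene was higher and 1 lower at 6 h (median -0.018), and 2 were higher and 0 lower at 24 h (median 0.108). TRIM25 averaged 240.1 CPM at 24 h, 677.9 CPM at 6 h and 191.9 CPM in control (log2 fold change 1.82 at 6 h, SE 0.0315, adjusted p = 1.77e-16, and 0.32 at 24 h, SE 0.0312, adjusted p = 4.24e-07). Its order of groups was that of ZC3HAV1. The helicase DDX17 had 0.17 on the log2 scale at 24 h (adjusted p = 0.00227). The kinase RIOK3 had -0.16 at 6 h (adjusted p = 0.0296). On the deposited normalized values that RIOK3 change was 0.005, where the median of all genes was 0.134. The RIOK3 value was -0.093 without the second control library (adjusted p = 0.225), and the call was also lost without the first or the second 6 h library (adjusted p = 0.0559 and 0.111).

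Decapping precedes XRN1, and of 18 decapping genes 4 were higher and 1 lower at 6 h (median 0.029), and 3 were higher and 3 lower at 24 h (median 0.04). DCP1A, an activator of the decapping enzyme, averaged 62.4 CPM at 24 h, 130.4 CPM at 6 h and 55.9 CPM in control, a log2 fold change of 1.22 at 6 h (SE 0.0461, adjusted p = 5.72e-12). PATL1, a scaffold of the decapping complex, averaged 61.5 CPM at 24 h, 101 CPM at 6 h and 54.6 CPM in control, a log2 fold change of 0.89 at 6 h (adjusted p = 7.15e-12). The catalytic subunit DCP2 had -0.11 at 6 h (adjusted p = 0.0873) and -0.44 at 24 h (adjusted p = 1.22e-06). On the deposited normalized values its 24 h value was -0.004, where the median of all genes was 0.371.

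At 24 h DCP1A and PATL1 had fallen back to 0.16 (adjusted p = 0.00942) and 0.17 (adjusted p = 0.000676) above control on the log2 scale. The DCP1A call at 24 h was lost without the second control library (adjusted p = 0.0668). Like XRN1, both genes were thus near their control level at 24 h. LSM2, a subunit of the ring that binds deadenylated mRNA ends, had 0.20 at 6 h (adjusted p = 0.0228), a call that was lost with library size alone as the scale (adjusted p = 0.481) and without control library 1, control library 3 or 6 h library 2 (adjusted p = 0.113, 0.0742 and 0.0795).

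The exosome carries out 3′-to-5′ decay. Of 22 exosome genes, 5 were higher and 3 lower at 6 h (median 0.063), and 5 were higher and 4 lower at 24 h (median 0.067). RBM7, which targets the nuclear exosome, had the largest increase, 0.78 on the log2 scale at 6 h (adjusted p = 3.27e-08). EXOSC9, a core subunit, had 0.48 at 6 h (adjusted p = 1.2e-05) and 0.31 at 24 h (adjusted p = 0.000378). TTC37, of the cytoplasmic SKI complex, had 0.35 at 6 h (adjusted p = 1.87e-05), and the cytoplasmic catalytic subunit DIS3L had -0.36 (adjusted p = 0.000235).

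Of 18 deadenylation genes, 3 were higher and 5 lower at 6 h (median -0.036), and 5 were higher and 3 lower at 24 h (median 0.083). TOB1, an adaptor that recruits the CCR4-NOT deadenylase, was among those higher at both times, with 0.68 at 6 h (adjusted p = 1.55e-08) and 0.77 at 24 h (adjusted p = 2.22e-09). Its paralog TOB2 had -0.44 at 24 h (adjusted p = 7.03e-07), and the deadenylase PARN had 0.29 at 24 h (adjusted p = 6.58e-05). BTG2, a further adaptor, had -0.58 at 6 h (adjusted p = 0.00579, and 0.0511 by DESeq2).

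Of 15 nonsense-mediated decay genes, 3 were higher and 0 lower at 6 h (median 0.05), and 1 was higher and 4 lower at 24 h (median -0.082). SMG1, the kinase of the pathway, had 0.37 at 6 h (adjusted p = 0.00126). The helicase DHX34 had -0.37 at 24 h (adjusted p = 4.66e-06) and SMG9, a regulator of that kinase, had -0.23 (adjusted p = 0.000113). Both of these 24 h values turned positive on the deposited normalized values (0.065 and 0.197), where the median of all genes was 0.371.

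Of 14 genes of mitochondrial RNA turnover other than PNPT1, 2 were higher and 2 lower at 6 h (median -0.013), and 5 were higher and 1 lower at 24 h (median 0.03). No gene of that list reached a 2-fold increase. The largest changes were -0.43 for the nuclease ENDOG at 6 h (adjusted p = 0.000291) and 0.26 for the RNA-binding protein FASTKD1 at 24 h (adjusted p = 0.00525). Of 14 genes that act on AU-rich or structured RNA, 5 were higher and 2 lower at 6 h (median -0.003), and 3 were higher and 4 lower at 24 h (median -0.063). In that list ZFP36L1, an AU-rich element binding protein, had 0.37 at 6 h (adjusted p = 1.48e-07), its paralog ZFP36 had -0.43 at 24 h (adjusted p = 1.86e-05), and STAU1, which binds double-stranded RNA, had 0.35 at 6 h (adjusted p = 6.07e-08). None of the decreases against control named for these lists passed on the deposited normalized values with a pseudocount of 1, while that of ZC3H12B at 6 h (adjusted p = 0.0517 there) passed with a pseudocount of 0.1. ZFP36 at 24 h was 0.002 on these values, where the median of all genes was 0.371 at 24 h and 0.134 at 6 h.

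The counts per list depend on the scaling, since most changes were small. With library size alone as the scale, deadenylation genes were 1 higher and 10 lower at 6 h, and 11 higher and 2 lower at 24 h, while exosome genes were 3 higher and 6 lower at 6 h, and 9 higher and 3 lower at 24 h. Decapping genes were then 2 higher and 7 lower at 6 h, and 7 higher and 2 lower at 24 h. On the deposited normalized values 0 genes of these lists were lower at either time. At 24 h 16 exosome, 14 decapping and 14 deadenylation genes were higher on those values, where the median of all genes was 0.371, and at 6 h 3 exosome, 2 decapping and 1 deadenylation genes were higher, where it was 0.134. The 6 decay factors counted 5 higher at 6 h under both scalings, and 6 higher at 24 h, where KHNYN was added. Of 16964 genes, library size alone called 8578 at 24 h (64.1% of them higher) and 7861 at 6 h (21.2% higher). The deposited values with a pseudocount of 1 called 8896 at 24 h (96.4% higher) and 1826 at 6 h (88.4% higher).

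**Figure D4:**
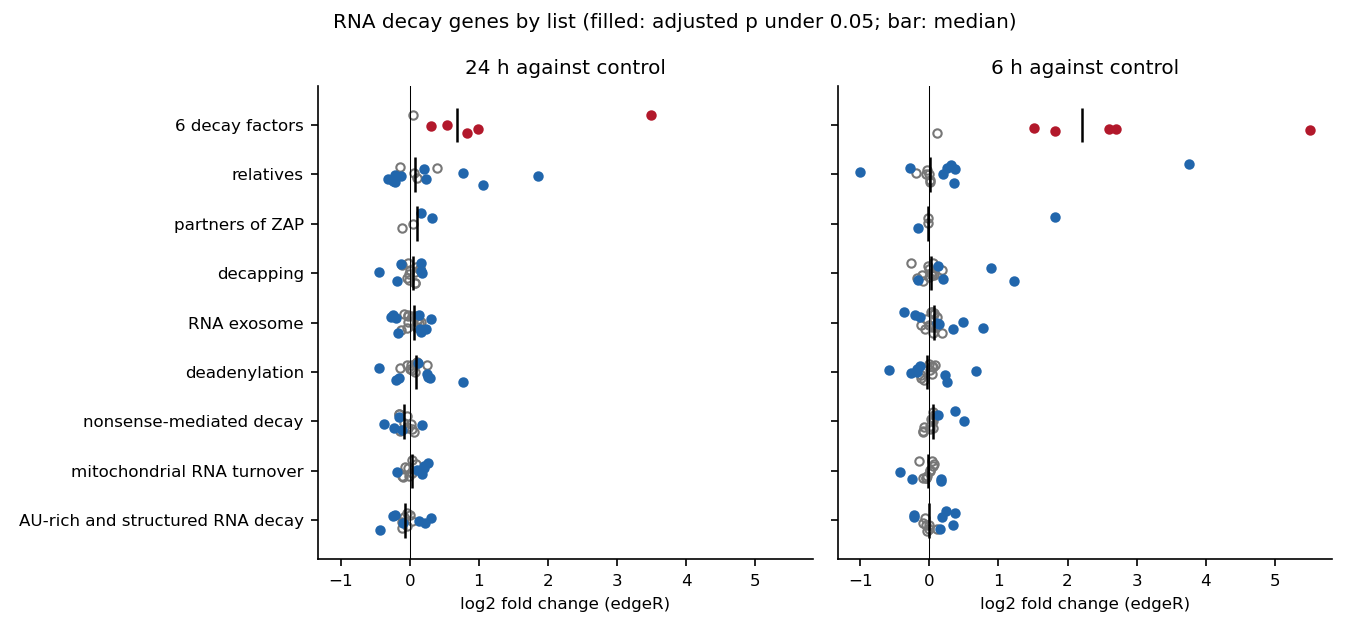
Log2 fold change (horizontal axis, edgeR) of every gene of the decay lists, 24 h against control at the left and 6 h against control at the right; filled points passed an adjusted p of 0.05, open points did not, and bars are list medians. The 6 factors have a median of 2.21 at 6 h and 0.69 at 24 h, and apart from PARP12, TRIM25 and DCP1A no listed gene outside them reached a 2-fold increase at 6 h.

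Likeness of response was measured as the root mean square difference in log2 CPM, centred on the control mean, over all 9 libraries. The gene most like PNPT1 was NMI, an interferon-induced protein, at 0.0404, followed by ZNFX1 at 0.0892 and TLE4 at 0.121. Nearest to ZC3HAV1 were TTC39B at 0.0535, FMR1 at 0.0647 and TRIM26 at 0.073. Nearest to N4BP1 were TRIM69 at 0.0706, RBCK1 at 0.0855 and PCGF5 at 0.0877.

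XRN1 and ISG20 had fewer close neighbours. Nearest to XRN1 were NUB1 at 0.184, MYD88 at 0.187 and WARS1 at 0.237, and 5 tested genes lay within 0.25. For ISG20 they were NLRC5 at 0.256, DHX58 at 0.269 and DDX58 at 0.311, so that 0 genes lay within 0.25. DHX58 and DDX58 encode RIG-I-like receptors. Within 0.25 there were 66 genes for ZC3HAV1, 54 for N4BP1 and 18 for PNPT1. KHNYN had 8128 genes within 0.25, led by PTPA at 0.0177, PHB at 0.0265 and GNAS at 0.0281.

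Among the factors themselves N4BP1 and ZC3HAV1 were most alike, at 0.249, followed by PNPT1 and XRN1 at 0.404. ISG20 and KHNYN were farthest apart, at 3.59. These distances are a description over libraries that share the same controls.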

How the data were processed

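RNA-seq of SUIT2 cells was deposited by the authors as estimated counts per gene (14.2% to 19.3% of the values in a library were not whole) and as a normalized signal table. STAR 2.7.8a and Partek were used with hg38, per the submitters' processing notes. No source used here states their roles or whether reads were counted by strand. The deposited signal table equals the counts plus 0.0001 times 1 multiplier per library. Estimated counts were rounded, where plain counts had been assumed, and edgeR 4.0.16 (R 4.3.3) was run on all 9 libraries with TMM factors, a minimum count of 10, a minimum total of 15 and group as the only term. Genes passed at an adjusted p under 0.05. A standard error is the log2 fold change divided by the root of its F statistic. The common biological coefficient of variation was 0.0392, and the script was tested on simulated data. Ratios used a pseudocount of 0.5 count and exact permutation tests. Likeness used log2 CPM with a prior count of 2.

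The members, the lists and the tests were chosen with earlier results of these data known. Named were all 6 factors, their ratio partners, up to 4 called genes per list with the largest change, and the 3 nearest genes per factor. Some genes that this rule covers are not reported here. Same-numbered libraries did not deviate together, so no block was used. No 2 libraries of the same group were duplicates: the mean chi-square per gene between replicates was 1.587 to 5.604. Pairs from different groups were not compared in this way. Alternatives were DESeq2 1.42.0, limma 3.58.1 (voom, and limma on log2 of the deposited normalized values), other scalings and filters, a replicate block, thinned counts and leaving out each library. Gene positions are those of the deposited table; exon lengths and overlaps come from GENCODE 29, whose match to the authors' annotation is not known. Counts give precision for counting error only.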

Additional observations from a re-analysis of the deposited data

Results flagged for a closer look

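For 5 decay factors the data met the criterion that the effect against control differed between 6 h and 24 h, with the difference itself tested by the 24 h against 6 h contrast of the edgeR fit. The log2 fold change between 24 h and 6 h was -0.968 for ZC3HAV1, -0.996 for N4BP1, -1.608 for PNPT1, -2.006 for ISG20 and -2.4 for XRN1, and each had the same direction in all 9 pairs of a 24 h with a 6 h library. No group was large enough for a test of outlying libraries, since each held 3.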

How the results depend on the processing

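Of 698 alternative values 683 kept their direction, their side of the threshold and, for counts and ratios, about their size. The 683 include the 21 ratio differences under the replicate block, which equal the main ones by construction and could not change. They also include the motif with 1 base between the repeats, held by 1 factor as before, but by PNPT1 in place of ISG20. ZC3HAV1, N4BP1, ISG20, PNPT1 and XRN1 kept direction and call in all 3 comparisons under all 22 alternatives each, the highest adjusted p being 0.0119, for XRN1 at 24 h. The 15 exceptions were 9 KHNYN fold changes, 4 ISG20 ratios, 1 count of factors and the stricter promoter motif. With library size alone as the scale KHNYN was -0.03 at 6 h, 0.117 at 24 h (adjusted p = 0.0438) and 0.147 at 24 h against 6 h (adjusted p = 0.00825), which made 1 factor higher in that last comparison in place of 0. On the deposited normalized values, tested with limma after adding a pseudocount of 1 or 0.1, KHNYN was 0.466 or 0.475 at 24 h (adjusted p = 0.0132 and 0.0142) and 0.19 or 0.194 at 24 h against 6 h. These scalings move all genes: the median log2 fold change was -0.145, 0.082 and 0.198 with library size alone (6 h, 24 h, 24 h against 6 h) and 0.134, 0.371 and 0.215 on the deposited values. The share of called genes that were higher was 21.2% and 88.4% at 6 h, 64.1% and 96.4% at 24 h, and 76.9% and 83.3% at 24 h against 6 h under these 2 scalings, while the counts of higher and lower genes as reported were 2968 and 2608, 4191 and 4284, and 4520 and 5184. List medians near 0 take the sign of that shift, and small changes of single list genes are no firmer than it. The deposited multiplier was the same, to 4 digits, for the first control and first 6 h library (0.05031) and for the second of each (0.04763), though their totals differ.

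With a pseudocount of 5 the ISG20 over ISG20L2 difference was 4.983 at 6 h and 3.307 at 24 h, and the ISG20 over AEN difference 4.617 and 3.206, the control counts of ISG20 being low. Leaving out 1 library at a time gave 5 to 6 factors higher at 6 h, 5 to 5 at 24 h and 5 to 6 lower at 24 h against 6 h. The stricter promoter motif was in 0 factors in place of 1. Correlations of deviations between same-numbered libraries ran from -0.059 to 0.021, 0 of 9 being over 0.1, and 2 of 9 libraries correlated best with their own number, so the numbers do not pair the libraries. With the replicate block 5 factors were higher at 6 h and 5 at 24 h, 5 were lower at 24 h against 6 h, and no factor's call changed. Thinning to 15101664 counts per library, chosen after the depths were seen, changed no factor's call.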
